A study of Mus musculus with 6 samples.

Results

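Hedgehog signalling and the primary cilium, the antenna-like organelle through which vertebrate cells read Hedgehog ligands, were followed in a bulk RNA-seq series of 6 libraries. The genes are 45 chosen by function, 14 of the Hedgehog pathway and 31 of the cilium, among 52636 gene identifiers in the deposited tables. All 45 had a measured entry, and all 45 had enough counts to be tested. The cells were E14 mouse embryonic stem cells taken out of LIF and 2 inhibitors (of MEK and of GSK3) and treated for 4 days with retinoic acid, at 5 in a unit the labels write as µm. The wild-type group had 3 libraries, and the knockout group had 3 libraries of cells lacking an enhancer cluster. Neither the position of that deletion nor the number of knockout clones is stated in the labels. The design text calls the libraries biological replicates, without saying what separates them, so p-values measure the spread between these libraries, which may be technical.

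Hedgehog ligands bind the receptor Patched, which otherwise holds the membrane protein Smoothened inactive. When Smoothened enters the cilium, GLI transcription factors stop being cut into repressors and instead activate targets, among them the genes for Patched and GLI1 themselves. Cilia are built by intraflagellar transport, in which kinesin-driven IFT-B trains carry cargo to the tip and dynein-driven IFT-A trains return it. The BBSome, a coat of Bardet-Biedl syndrome proteins, moves membrane receptors, and the transition zone at the base acts as a gate. In the embryo this pathway patterns the ventral neural tube, and retinoic acid acts on the same tissue.

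Library totals over genes ran from 7780368 to 9472916 counts. A single knockout library, replicate 1, held 1.04% of its counts in 5 genes over ribosomal RNA repeats, where the remaining 5 libraries had 0.0726 to 0.118%. The share of counts from mitochondrial genes was 1.67 to 1.73% in wild type against 2.58 to 2.89% in the knockout. Of all 15816 tested genes, 68.6% passed the test between the groups (edgeR's quasi-likelihood test, Benjamini-Hochberg adjusted p under 0.05), with 34.5% of all tested genes higher in the knockout and 34.0% lower. The median absolute log2 fold change was 0.49. Counts of changed genes below are to be read against these shares.

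The design text describes the cells as neural progenitors, and the defining markers were checked. Of 12 neural progenitor markers, Fabp7 had 0 counts in all 6 libraries and Hes5 had 0 counts in every library but 1. A count of 0 allows up to 3 counts, or 0.319 to 0.386 CPM (TMM-scaled counts relative to the library total). Sox1, an early neural marker, stood at only 1.98 ± 0.521 CPM in wild type against 1.84 ± 0.607 in the knockout (SD, n = 3 per group, as throughout). The summed level of the 12 markers was 497.3 to 516.4 CPM in wild type against 168.8 to 181.7 in the knockout. Nes, Cdh2 and Sox2 made up 433.1 to 461.1 CPM and 107.1 to 112.9 CPM of these sums, while the other 9 markers summed to 55.3 to 64.2 CPM and 61.3 to 71.9 CPM. Of 10 tested, 5 fell and 3 (Pax6, Dll1 and Msi1) rose. The 15 markers of extraembryonic endoderm summed to 4506.2 to 4542.9 CPM in wild type against 12593.2 to 12907.7 in the knockout, with 12 of 15 higher and 2, Sox17 and Ihh, lower. None of these 15 was at 0. Apoa1, 1 of the 12, reached the count filter (1.2 CPM) only through the knockout libraries, so the filter favoured its rise. The basement membrane genes Col4a1, Lama1 and Lamb1 carried most of that sum, and the other 12 held 801.9 to 821.2 CPM in wild type and 2055.7 to 2151.4 CPM in the knockout. Mesoderm and mesenchyme markers summed to 1578.3 to 1620.8 CPM in wild type and 567.6 to 574.1 CPM in the knockout, with 2 of 7 tested higher and 5 lower. Vim and Col1a1 carried that fall in the sum, and the other 8 held 248.1 to 258.0 CPM and 287.1 to 294.6 CPM. Within these 8, Pdgfra rose from 75.4 ± 6.34 to 175.5 ± 5.37 CPM, and Foxf1 rose by 0.80 (SE 0.11). Col3a1 (-1.13, SE 0.059), Hand1 (-0.49, SE 0.099) and Twist1 (-0.74, SE 0.15) fell, and T, Mesp1 and Tbx6 were too low to be tested. Pluripotency markers summed to 1112.6 to 1145.9 CPM and 891.9 to 919.5 CPM, with 3 of 9 tested higher and 5 lower, among the latter Nanog (-2.32, SE 0.054). Ventral neural tube and floor plate markers, the classic Hedgehog-dependent set, summed to 29.8 to 35.4 CPM in the wild type and 28.6 to 34.3 CPM in the knockout, and 3 of 8 had enough counts to be tested. Most of that sum was Foxa2, also an endoderm factor, at 24.9 ± 1.24 and 25.5 ± 3.72 CPM. Shh fell, as described with the ligands, and Nkx6-1 stood at 2.24 ± 0.217 and 1.36 ± 0.0946 CPM and did not pass. In bulk RNA, fewer cells of a type and less RNA per cell cannot be told apart, and the part these cell type markers play in the results below was not tested.

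Most Hedgehog pathway genes fell and most cilium genes rose. Of the 14 pathway genes, 10 fell in the knockout (34.0% of all tested genes did) and 3 rose (34.5% of all), with a median log2 fold change of -0.63. Among the 10 is Shh, which was tested only because of its wild-type level and so had to be lower in the knockout. Of the 31 cilium genes, 21 rose and 2 fell, with a median of 0.41. The median over all tested genes was 0.01. Together, 24 of the 45 rose, 12 fell and 9 did not pass. Changes past the threshold of 1 or more on the log2 scale, in either direction, numbered 10 of the 45, a share near the 21.0% of all tested genes.

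**Figure D1:**
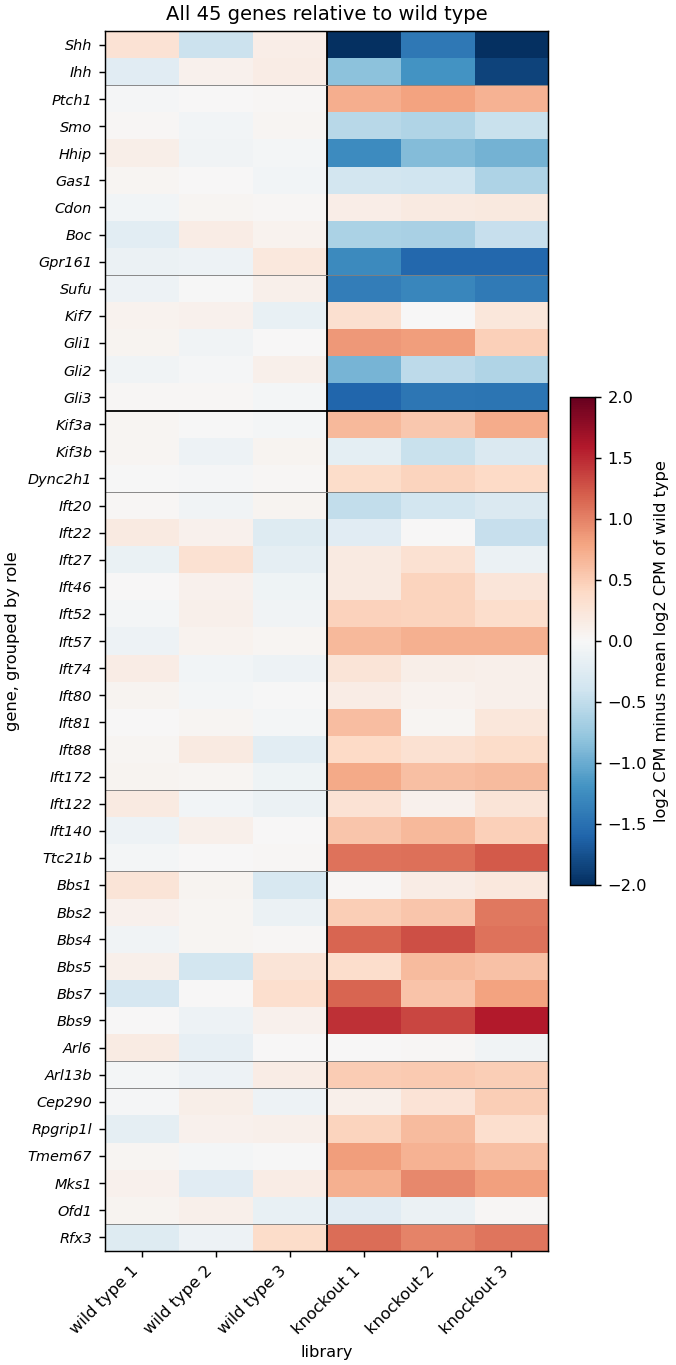
Log2 CPM of all 45 genes (rows, grouped by role) in each of the 6 libraries (columns), minus the gene's mean log2 CPM over the 3 wild-type libraries. Colours saturate at 2 and -2. Above the black horizontal line, most Hedgehog pathway genes are lower (blue) in the 3 knockout libraries, while below it most cilium genes are higher (red).

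Both measured ligand genes of the set fell. Shh, encoding Sonic hedgehog (ENSMUSG00000002633, chromosome 5, 28456815 to 28467256 in GRCm38), had 31, 21 and 27 counts in wild type against 5, 9 and 5 in the knockout. This was 3.67, 2.23 and 3.31 CPM against 0.644, 1.12 and 0.586. The knockout counts were near the floor of 3 counts. Shh was the only gene of the 45 to reach the count filter (1.2 CPM) through 1 group alone, with 3 wild-type and 0 knockout libraries past it. Its groups therefore could not overlap, and its direction was set by the way it reached the filter. Shh fell by 1.95 on the log2 scale (SE 0.41, adjusted p = 0.000147 by edgeR), a value to be read with that limit. Exons of 2 noncoding genes on the other strand cover 15.7% and 12.7% of the exon length of Shh, and with the strand setting not given, reads in those stretches cannot be assigned. Ihh, encoding Indian hedgehog, a ligand made by visceral endoderm in the early embryo (chromosome 1, 74945315 to 74951672), stood at 7.57, 9.47 and 9.82 CPM in wild type against 5.02, 3.87 and 2.46 in the knockout. All knockout values lay below all wild-type values, with a log2 fold change of -1.25 (SE 0.23, adjusted p = 3.09e-05). Ihh was thus 1 of the 2 endoderm markers that fell while 12 others rose. The third ligand gene, Dhh, was at 1.72 CPM in wild type against 2.04 in the knockout and did not pass (0.25, SE 0.38).

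Receptor genes split. Ptch1, encoding the ligand receptor that restrains Smoothened and itself a direct GLI target (ENSMUSG00000021466, chromosome 13, 63508328 to 63573598), stood at 62.4, 63.8 and 64.4 CPM in wild type against 104.7, 110.6 and 102.6 in the knockout. Its 3 knockout values all lay above the wild-type values, and it rose by 0.74 on the log2 scale (SE 0.053, adjusted p = 3.84e-12). Smo, encoding Smoothened, the signal transducer (chromosome 6, 29735503 to 29761365), went the other way, from 113.3, 107.0 and 114.0 CPM to 75.5, 73.1 and 81.6. It fell by 0.54 (SE 0.053, adjusted p = 1.33e-09). Hhip, encoding a membrane protein that sequesters ligand and is also a known GLI target, stood at 17.6, 15.6 and 15.8 CPM in wild type against 6.83, 8.98 and 8.43 in the knockout. Hhip fell by 1.01 (SE 0.15), so that 2 receptors of the ligand, both targets of the pathway, moved apart.

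The 3 co-receptors, which help Patched capture ligand, did not move alike either. Gas1, a lipid-anchored co-receptor, was the most abundant of the 45 genes per length, at 69.6 CPM per kb of exon in wild type against 50.8 in the knockout. Its library values of 211.6, 207.7 and 199.2 CPM in wild type against 160.6, 156.2 and 134.6 in the knockout did not overlap, and it fell by 0.46 (SE 0.053). A noncoding gene on the other strand covers 19.9% of its exon length. Boc, an immunoglobulin-family co-receptor, fell by 0.59 (SE 0.12), from 24.4, 31.5 and 29.7 CPM to 18.2, 18 and 20.7. Its relative Cdon rose by 0.17 (SE 0.047, adjusted p = 0.00306), from 92.8, 99.2 and 98.3 CPM to 105.9, 109.2 and 110.9. That rise is small beside the median absolute change of all genes, but the groups did not overlap. Gpr161, encoding a ciliary receptor that keeps protein kinase A active and so holds the pathway down in the absence of ligand, had one of the larger falls. It stood at 16.7, 16.9 and 21.0 CPM in wild type against 7.47, 6.11 and 6.09 in the knockout, a change of -1.47 (SE 0.16, adjusted p = 6.9e-09).

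Downstream of Smoothened, Sufu and 2 of the 3 GLI genes fell, and the summed level of the 5 transducer genes went from 255.6 to 260.5 CPM in wild type down to 138.7 to 140.9 in the knockout. Sufu, encoding the protein that binds GLI factors and keeps them out of the nucleus (ENSMUSG00000025231, chromosome 19, 46396896 to 46488804), went from 58.9, 63.2 and 68.1 CPM to 24.2, 25.5 and 23.7. Every knockout value was less than any wild-type value, and Sufu fell by 1.37 (SE 0.083, adjusted p = 1.04e-13). Kif7, a kinesin that organises GLI proteins at the ciliary tip, stood at 35.8, 36.2 and 30.8 CPM in wild type against 42.8, 34.3 and 40.2 in the knockout. These ranges overlapped, and its change of 0.19 (SE 0.095) did not pass (adjusted p = 0.0831). Without knockout replicate 2, the lowest of the knockout libraries, Kif7 was at 0.27 with an adjusted p of 0.0157. With upper-quartile scaling it was at 0.22, with an adjusted p of 0.0391. A noncoding gene on the other strand covers 19.1% of its exon length.

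The 3 GLI genes changed in their proportions. Gli3, whose cut form is the main repressor of Hedgehog targets (ENSMUSG00000021318, chromosome 13, 15463235 to 15730026), stood at 120.0, 120.1 and 114.5 CPM in wild type against 39.3, 43.2 and 43.1 in the knockout. It fell by 1.5 (SE 0.058, adjusted p = 1.03e-17), the smallest adjusted p of the 45 genes. Gli2, the main activator in most tissues, went from 32.5, 33.5 and 36.7 CPM to 18, 23.8 and 22.5, and fell by 0.67 (SE 0.11). In contrast Gli1, a GLI factor without a repressor form whose transcription is a standard readout of pathway activity (ENSMUSG00000025407, chromosome 10, 127329882 to 127341974), had 8.28, 7.55 and 7.98 CPM in wild type against 14.4, 14.1 and 11 in the knockout. It rose by 0.73 (SE 0.16, adjusted p = 0.000275) and was the only GLI gene of the 3 to rise. An antisense gene covers 5.30% of its exon length. Per kb of exon, wild-type levels were ordered Gli3 (12.3), Gli2 (4.98), Gli1 (1.59). In the knockout the levels were 4.36, 3.12 and 2.64 CPM per kb, much closer together.

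**Figure D2:**
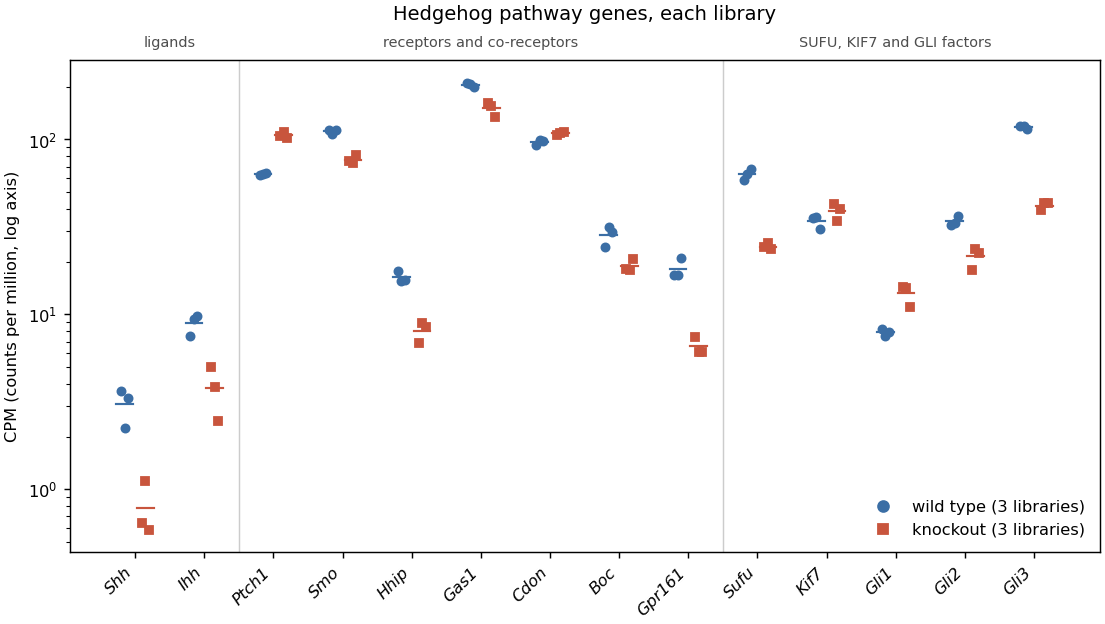
CPM on a log axis of the 14 Hedgehog pathway genes in each library (circles, wild type; squares, knockout; short lines, group means, n = 3). Ptch1, Cdon and Gli1 sit higher in the knockout, Kif7 overlaps, and the other 10 sit lower, with Shh down to 0.586 CPM in the lowest library.

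Ratios taken within each library do not depend on scaling between libraries. The ratio of Gli1 to Gli3 counts per kb was 0.132, 0.121 and 0.134 in wild type against 0.705, 0.627 and 0.490 in the knockout, 4.71 times as high on average. That of Gli3 to Gli2 went from 2.48 ± 0.217 to 1.41 ± 0.135. Ptch1 to Smo, receptor to transducer, was 0.218, 0.236 and 0.224 in wild type against 0.550, 0.599 and 0.498 in the knockout. The ranges overlapped for Sufu to Gli3, at 0.670 ± 0.0661 and 0.729 ± 0.0424 (exact permutation p = 0.3), and for Boc to Gas1, at 0.0922 ± 0.0135 and 0.0847 ± 0.0154 (exact permutation p = 0.8). Of 9 ratios computed, 7 did not overlap between the groups. Among single genes, 70.9% of all tested did not overlap either. The pairs join genes whose own changes are given in this report, so the count is not a separate result. For each of these 7 the exact two-sided permutation p was 0.1, the smallest that 3 against 3 libraries allow, or 0.129 after Benjamini-Hochberg adjustment over the 9.

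**Figure D3:**
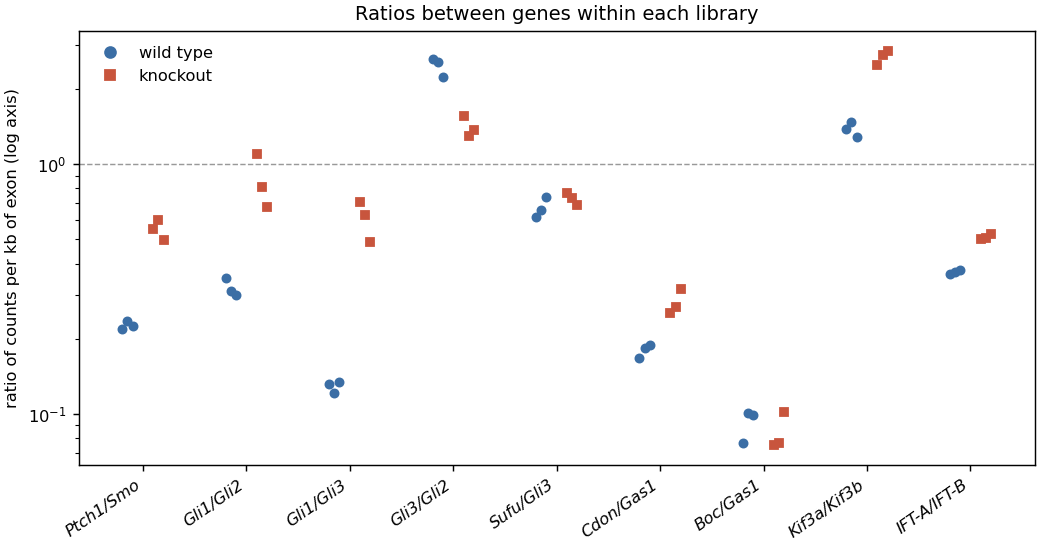
Ratios of counts per kb of exon between pairs of genes in each library, on a log axis (circles, wild type; squares, knockout; dashed line, equal levels). Gli1/Gli3 shows the widest gap between the groups, while the Sufu/Gli3 and Boc/Gas1 values overlap. IFT-A/IFT-B is the ratio of the mean over 3 IFT-A genes to the mean over 11 IFT-B genes.

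Of the 31 cilium genes, 21 rose, against 34.5% higher among all tested genes, and 2 fell, against 34.0%. All 3 knockout libraries lay above all 3 wild-type libraries for 21 of the 31 (35.5% of all tested genes) and below them for 2 (35.4%), 70.9% in either direction. Genes of all 4 cilium machines, IFT-B, IFT-A, the BBSome and the transition zone, were among those that rose. The same libraries carried the higher mitochondrial shares and endoderm marker levels given above, whose part in this was not tested.

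RFX factors, a family that includes Rfx3 of this set, are the known activators of cilium genes and bind a palindrome called the X-box. RefSeq promoter windows of GRCm38.p6, from 250 bases before to 50 after the gene start, were found for 38 of the 45 genes, 27 of them cilium genes. The promoters of Shh, Boc, Gli1, Ift80, Ift81, Ift122 and Tmem67 had no window and were not searched for any motif. The full X-box motif, searched on both strands, was present in the windows of 2 of these 27 cilium genes, Ift57 and Bbs1, and in 1.76% of 26994 genes. Its half-site GTTGCC, searched on both strands after the count for the full motif was seen, is a form of 1 arm of that motif, so the searches overlap. It was present in 13 of the 27 and in 14.1% of all genes. The half-site was in none of the 11 Hedgehog pathway genes with a window. Of the 13 carriers, 11 rose, 0 fell and 2 did not pass (median log2 fold change 0.55), and of the 14 without it 8 rose, 2 fell and 4 did not pass (median 0.29). The largest rises, of Bbs9, Bbs4 and Ttc21b, were among those without it. A match is a description of letters in a window and not a bound site. The stretches listed here show the half-site (capitals) in the carriers that rose by at least 0.5 and in the 2 that did not pass, each written 5′ to 3′ on the strand of its gene. The first 9 belong to genes that rose and the last 2 to Bbs1 and Ift27, and GGCAAC is the half-site read on the opposite strand.
Ift57 (chr16:49699195-49699224, plus strand): gaggcgggtctgGTTGCCgtggtgaccggc
Ift172 (chr5:31291097-31291126, minus strand): tgtcgcactcacGTTGCCtgtgcgtcagcg
Bbs5 (chr2:69647201-69647220, plus strand): caaagccggcgcGTTGCCtt
Arl13b (chr16:62847204-62847233, minus strand): acagacgctccaGTTGCCtagttaccagag
Bbs7 (chr3:36613493-36613522, minus strand): gaatgcgccccgGTTGCCttggaaaccggc
Mks1 (chr11:87853179-87853208, plus strand): gccagcgtctccGTTGCCaggggaacgagg
Ift140 (chr17:25015965-25015994, plus strand): gcgtgttgtgacGGCAACctcgcgcccttg
Kif3a (chr11:53567259-53567288, plus strand): caccccgcaggcGTTGCCccagtctagcgt
Rfx3 (chr19:28011118-28011147, minus strand): gttatagcaaccGTTGCCttgtgaatcaag
Bbs1 (chr19:4906609-4906638, minus strand): atggctgagctgGTTGCCaaggcgacgcct
Ift27 (chr15:78174073-78174102, minus strand): gggttgatgatgGTTGCCaggagcctgttt
The GLI site GACCACCCA, searched in the same way, was in none of the windows of the 11 pathway or 27 cilium genes and in 0.289% of all genes. Its shorter core CCACCCA, which lies within it, was in 0 of the 11, in 3 of the 27 and in 10.6% of all genes.

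Rfx3 itself (ENSMUSG00000040929, chromosome 19, 27761721 to 28011166), which encodes a transcription factor needed for cilium formation, stood at 13.0, 14.5 and 20.2 CPM in wild type against 33.9, 31.1 and 32.9 in the knockout. All knockout values exceeded the wild-type ones, and it rose by 1.04 (SE 0.13, adjusted p = 7.39e-08). Other RFX and GLIS factors went both ways. Of 6 tested, Glis3 (0.56, SE 0.16) and Rfx2 (0.36, SE 0.15) rose and 4 fell, among them Glis2 (-0.61, SE 0.052), Rfx7 (-0.55, SE 0.053) and Rfx1 (-0.41, SE 0.088). The count of 2 that rose became 1 without wild-type replicate 1, wild-type replicate 2 or knockout replicate 1, and also by DESeq2. A gene on the other strand covers 10.4% of the exon length of Glis2.

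Transport starts with the motors, of which 2 of 3 genes rose and 1 fell. Kif3a, a motor subunit of the kinesin that drives trains to the ciliary tip, went from 46.6, 45.1 and 43.8 CPM to 70.7, 65.9 and 75.7, a rise of 0.65 (SE 0.070). Its partner subunit Kif3b instead fell by 0.31 (SE 0.081), from 51.5 ± 3.15 to 41.5 ± 3.47 CPM. The ratio of Kif3a to Kif3b per kb therefore went from 1.38 ± 0.0970 to 2.69 ± 0.180, without overlap. Dync2h1, the heavy chain of the return motor, rose by 0.40 (SE 0.089), from 27.8 ± 0.515 to 36.7 ± 0.899 CPM.

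IFT-B genes rose in 6 of 11 and fell in 1, and 4 did not pass. Ift172, a large peripheral subunit, went from 37.0, 36.7 and 33.7 CPM to 60.7, 54.3 and 55.7, a rise of 0.67 (SE 0.078, adjusted p = 3.13e-08). Ift57, another peripheral subunit (chromosome 16, 49699233 to 49765126) and a carrier of the full X-box, went from 14.7, 16.7 and 16.2 CPM to 24.9, 25.8 and 25.9. It rose by 0.69 (SE 0.11, adjusted p = 7.12e-06), and its groups lay far apart relative to their spread. An antisense gene that covers 7.86% of its exon length had 30 to 35 counts in wild type and 61 to 66 in the knockout. Core subunits Ift52 (0.41, SE 0.086) and Ift46 (0.29, SE 0.075) had smaller rises.

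The weaker IFT-B calls rested on single libraries. Ift81, which with IFT74 binds tubulin cargo, passed at 0.31 (SE 0.12), with knockout values of 36.7, 24.6 and 28.0 CPM against 23.3 to 24.6 in wild type. Without knockout replicate 1, which held the highest value and the larger ribosomal RNA share, it was at 0.13 with an adjusted p of 0.309. It also missed the threshold without wild-type replicate 1 (0.0569) or 3 (0.0846) and by DESeq2 (0.0544). Ift88, the subunit lost in the classic mouse model of missing cilia, passed at 0.35 (SE 0.13), but not without wild-type replicate 3 (adjusted p 0.115) or by DESeq2 (0.0502). Ift20, which also works at the Golgi, fell by 0.38 (SE 0.11), from 26.1 ± 1.19 to 20.1 ± 1.40 CPM. The changes of Ift22 (-0.23, SE 0.20), Ift27 (0.11, SE 0.18), Ift74 (0.15, SE 0.12) and Ift80 (0.11, SE 0.084) did not pass, although the Ift80 groups did not overlap.

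IFT-A, the complex of the return trip, rose in 2 of 3 genes. Ttc21b, which encodes the IFT139 subunit (ENSMUSG00000034848, chromosome 2, 66184327 to 66256617), went from 18.2, 18.9 and 19.1 CPM to 39.7, 40.3 and 43.8. That was a rise of 1.14 (SE 0.096, adjusted p = 8.19e-11), with a gap between the groups many times their SD. Ift140 rose by 0.55 (SE 0.093), from 24.7, 28.4 and 26.6 CPM to 38.8, 41.4 and 36.9. Ift122, at 0.21 (SE 0.12), did not pass. Per kb of exon the mean of these 3 IFT-A genes relative to the mean of the IFT-B genes above went from 0.371 ± 0.00651 to 0.510 ± 0.0129. The groups did not overlap. Other IFT-A genes lie outside this ratio, so it does not describe the whole complex. Of them Wdr19 rose by 1.26 (SE 0.10), while Ift43 (0.26, SE 0.14) and Wdr35 (-0.10, SE 0.074) did not pass.

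Bardet-Biedl genes held the largest rises of the set. The group had 5 of 7 higher and 0 lower. Bbs9, a core BBSome subunit (ENSMUSG00000035919, chromosome 9, 22475715 to 22888280), went from 8.51, 7.87 and 8.96 CPM to 23.3, 21.2 and 25.4, a rise of 1.47 (SE 0.13, adjusted p = 3.7e-10). Bbs4, the subunit that links the complex to pericentriolar satellites, went from 14.2, 15.3 and 15.2 CPM to 33.4, 36.3 and 31.6, a rise of 1.18 (SE 0.11). Adpgk, on the other strand, covers 3.21% of its exon length and had 619 to 888 counts. Bbs9 and Bbs4 more than doubled in every knockout library relative to every wild-type library. Bbs7 rose by 0.84 (SE 0.18), from 6.15, 7.87 and 9.82 CPM to 17.5, 11.6 and 13.6, and Bbs2, its partner in the core, by 0.73 (SE 0.15), from 11.8, 11.4 and 10.2 CPM to 15.7, 16.3 and 23.1. Within each of these groups the libraries scattered more than for Bbs9. Bbs5, which binds phosphoinositides, rose by 0.50 (SE 0.17), from 9.34, 6.70 and 10.4 CPM to 11, 13.4 and 13.0. That call was lost without wild-type replicate 2, the lowest library, where it was at 0.33 with an adjusted p of 0.106. Bbs1, at 0.12 (SE 0.16), did not pass, nor did Arl6, the GTPase that recruits the coat to membranes, at -0.02 (SE 0.15).

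Arl13b, a GTPase of the ciliary membrane whose loss disturbs Hedgehog signalling, went from 26.6, 25.4 and 30.3 CPM to 39.0, 39.2 and 38.3. It rose by 0.50 (SE 0.092), with knockout values within 1 CPM of each other. Of 5 transition zone and basal body genes, 4 rose and 0 fell. Mks1, a member of the Meckel syndrome module of the gate, rose by 0.84 (SE 0.15), from 10.2, 8.19 and 10.6 CPM to 15.8, 18.6 and 17.0. Tmem67, its membrane-spanning partner, rose by 0.71 (SE 0.14), from 9.93, 9.36 and 9.57 CPM to 17.1, 15.6 and 14.6. In both, every knockout library exceeded every wild-type library. Rpgrip1l, a scaffold of the gate, rose by 0.47 (SE 0.14). Cep290, which links membrane and microtubules there, passed at 0.29 (SE 0.10) although its groups overlapped, at 28.0 to 32.5 CPM and 32.1 to 42.0 CPM. A gene on the other strand covers 7.58% of its exon length. Leaving out wild-type replicate 3 gave an adjusted p of 0.0744, and leaving out knockout replicate 3 gave 0.129. Ofd1, a centriolar protein, was at -0.11 (SE 0.099) and did not pass. Exons on the other strand also cover 1.45 to 3.73% of the exon length of Tmem67, Ofd1, Arl6, Gli3, Hhip and Ift88.

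**Figure D4:**
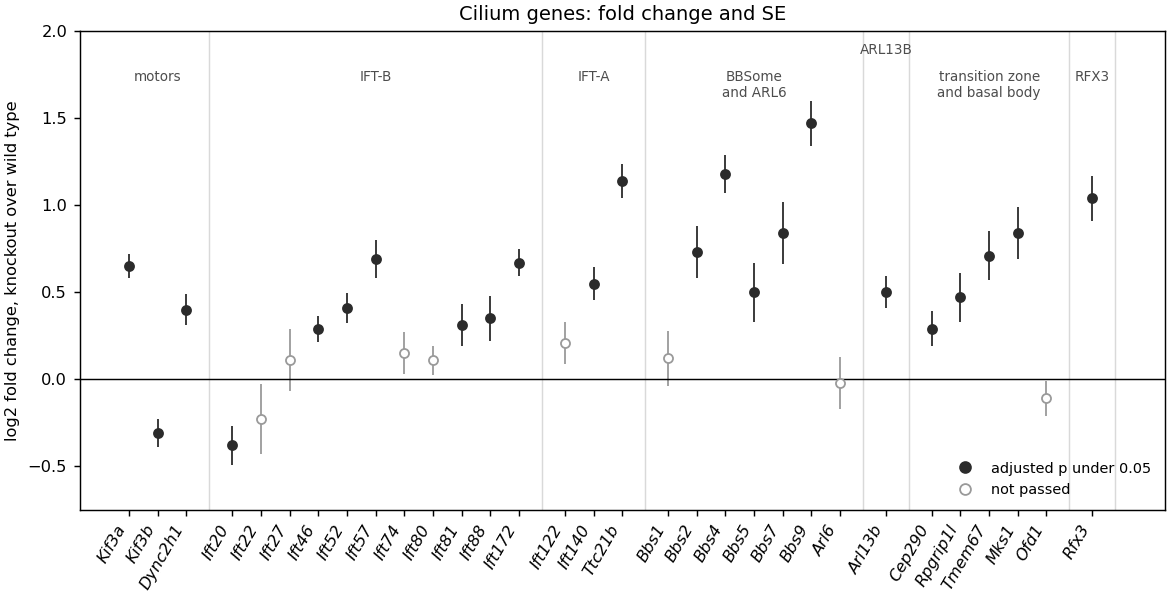
Log2 fold change, knockout over wild type, of the 31 cilium genes with its SE, grouped by complex (filled, adjusted p under 0.05 by edgeR; open, not passed). Of the filled points 21 lie above 0 and 2 below, with Bbs9 highest at 1.47 and Ift20 lowest at -0.38.

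Other genes of the pathway and the cilium, from lists chosen for their function, were counted in the same fit. Each tally is to be read against the 34.5% of all tested genes that rose and the 34.0% that fell. Known Hedgehog targets were split. Of 14 tested, 3 rose and 6 fell (median -0.26), and the 3 with the smallest adjusted p all fell. They were Ccnd1, encoding cyclin D1 (-3.78, SE 0.11), Cdk6, its kinase partner (-2.44, SE 0.10), and Bmp4 (-2.10, SE 0.11), each of which also answers to other pathways. Nkx2-9, another of the 6, reached the count filter through the wild-type libraries alone. A gene on the other strand covers 23.4% of the exon length of Ccnd1.

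Genes that release or carry the ligand went both ways, with 4 of 11 tested higher and 3 lower (median -0.02). These counts were near the shares of all tested genes (34.5% higher, 34.0% lower). The glypican gene Gpc4 fell from 309.4 ± 13.1 to 66.9 ± 4.49 CPM (-2.21, SE 0.052), whereas its relative Gpc3, whose product competes for ligand, rose from 428.7 ± 3.07 to 723.3 ± 34.6 CPM (0.75, SE 0.036). Among the secreted ligand carriers of the SCUBE family, Scube3 fell by 1.45 (SE 0.056), whereas Scube2 rose by 1.68 (SE 0.14) and Scube1 by 0.80 (SE 0.14). Of 28 kinases, ligases and other intracellular regulators, 10 rose and 8 fell (median 0.05), also near those shares. Grk3, of a kinase family that phosphorylates Smoothened, rose by 1.46 (SE 0.080), while its relative Grk2 (-0.34, SE 0.055), Ptpn11 (-0.68, SE 0.049) and Dlg5 (-0.52, SE 0.049) fell.

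In 3 further cilium lists more genes rose than fell. Of 19 other IFT and motor genes tested, 10 rose and 3 fell (median 0.33; 1 fell without knockout replicate 1). Wdr19, encoding the IFT-A subunit IFT144, rose by 1.26 (SE 0.10), Dync2li1, a light intermediate chain of the return motor, by 1.47 (SE 0.15), and Kifap3, the adaptor subunit of the KIF3 kinesin, by 0.62 (SE 0.056). In 22 other transition zone genes 13 rose and 3 fell (median 0.36). Tmem231 was at 0.69 (SE 0.10) and Rpgrip1, a relative of Rpgrip1l, at -0.38 (SE 0.050). Supt16, on the other strand, covers 8.7% of the exon length of Rpgrip1. It had 3328 to 3788 counts in wild type and 2359 to 2767 in the knockout, and reads in that stretch cannot be assigned. Basal body genes rose in 11 of 18 and fell in 1 (median 0.38; 2 fell without knockout replicate 1), with Cep131 at 1.16 (SE 0.099), Cep83, of the distal appendages, at 0.90 (SE 0.070), and Odf2 at 0.51 (SE 0.043).

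Not every ciliary list went up. Other BBSome and membrane traffic genes rose in 2 of 9 and fell in 3 (median -0.25). Bbip1, the smallest BBSome subunit, rose by 1.06 (SE 0.10) and Rab11a by 0.80 (SE 0.061). Rab8a, a GTPase of ciliary membrane delivery, fell by 0.52 (SE 0.068), and Mkks, a Bardet-Biedl gene, fell by 0.75 (SE 0.11). A gene on the same strand covers 29.3% of the exon length of Mkks. Genes of receptors and signalling proteins inside the cilium rose in 2 of 9 and fell in 4 (median 0.07). Rab23, a negative regulator of Hedgehog signalling, fell by 1.03 (SE 0.080). The polycystin genes Pkd2 and Pkd1 fell by 0.90 (SE 0.065) and 0.79 (SE 0.051). Tsc2, on the other strand, covers 3.98% of the exon length of Pkd1 and had 1286 to 1452 counts.

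Motile cilium genes, which a primary cilium lacks, served as a contrast. Low counts kept 13 of 24 out of the test, and of the 11 left 7 rose and 1 fell. Of these 11, 5 reached the count filter only through their knockout libraries, so the tally is tilted upward. Rsph1, Rsph9 and Zmynd10 had 0 wild-type libraries past the filter and had to be higher in the knockout. Drc1 and Dnaic2 each had 1 wild-type library past it, so the filter favoured their rise. The summed level of all 24 motile cilium genes was 49.5 to 51.8 CPM in wild type against 77.7 to 82.7 in the knockout. Drc1, of the dynein regulatory complex, rose by 3.18 (SE 0.39), from 0.775 ± 0.767 to 7.10 ± 1.72 CPM. Dnah11, an outer arm dynein, rose by 1.2 (SE 0.15), and Rsph1, of the radial spokes, by 2.69 (SE 0.41), to only 3.81 ± 1.16 CPM. Cdca7l, on the other strand, covers 4.44% of the exon length of Dnah11 and had 187 to 277 counts. The regulators that define multiciliated cells were nearly absent. Foxj1 had 8, 20 and 11 counts in wild type against 8, 4 and 8 in the knockout, Gmnc had 0 in all 6 libraries, and Mcidas was below the count needed for a test.

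**Figure D5:**
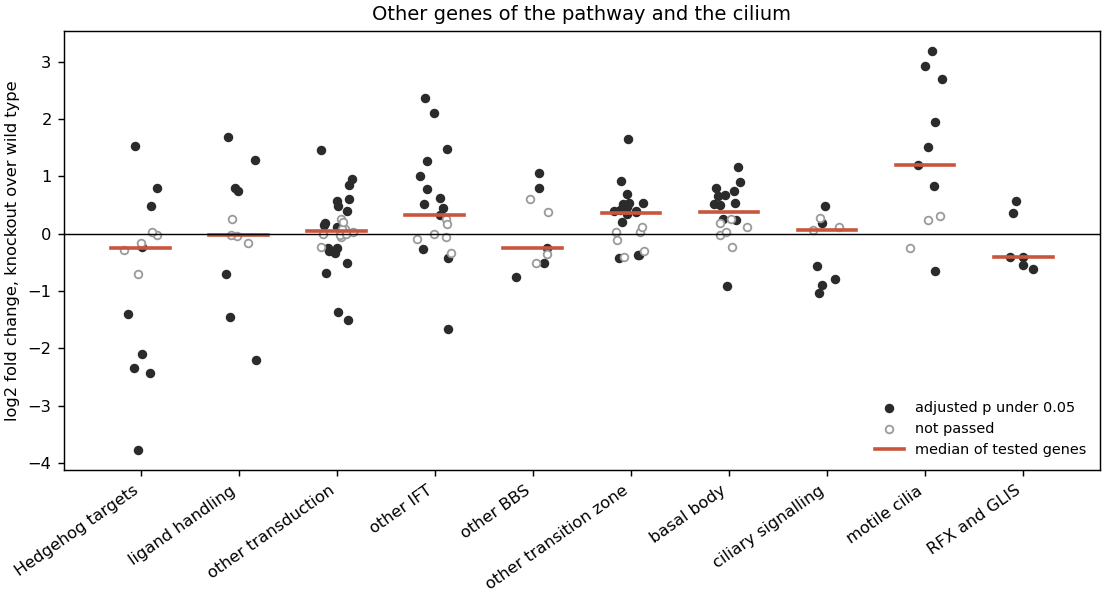
Log2 fold change, knockout over wild type, of the tested genes in 10 further lists (filled, adjusted p under 0.05 by edgeR; open, not passed; red line, median of the tested genes). Medians lie above 0 for other IFT, transition zone and basal body genes, and for motile cilium genes, of which 5 of 11 were tested only because of their knockout level. They lie below 0 for Hedgehog targets (-0.26), other BBS genes (-0.25) and RFX and GLIS factors (-0.41).

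Cilia are taken apart as cells divide, so genes of the cell cycle were set beside these results. Of 14 listed, 8 rose and 4 fell (median 0.36). The list holds both genes of division and inhibitors of it, so this tally gives no direction for division. Nek2, 1 of the 8, passed although its groups overlapped. Mki67, a proliferation marker, rose by 0.58 (SE 0.039), as did Cdkn1b, an inhibitor of cyclin-dependent kinases, by 1.05 (SE 0.056), whereas Cdkn1a, another inhibitor, fell by 0.94 (SE 0.048). Among other genes of division Top2a rose by 0.46 (SE 0.036) and Plk1 fell by 0.19 (SE 0.046). Ccnb1 (0.04, SE 0.048) and Aurka (-0.07, SE 0.046) did not pass. The part of the cell cycle in the rise of cilium genes was not tested.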

How the data were processed

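The authors deposited 1 table of whole-number read counts per Ensembl gene for each of 6 libraries, without normalisation. HISAT2 2.1.0, HTSeq 0.9.1, DESeq2 1.18.1 and build mm10 are named in the submitters' processing notes. Annotation release, read layout and strand setting: not given in the sources used here. Reads given to genes were 36.0 to 38.4% of each library, and those under no feature (42.3 to 43.5%) and the other HTSeq tallies stayed out.

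Symbols, positions and exon lengths came from GENCODE M21 (GRCm38), which matched 52489 of 52636 identifiers. Counts were fitted on the whole table with edgeR 4.0.16 (R 4.3.3), with filterByExpr at a minimum count of 10, TMM scaling, quasi-likelihood F tests and Benjamini-Hochberg adjustment over 15816 genes at 0.05. The SE is the log2 fold change over the square root of F. The procedure was tested on simulated data in which far fewer genes changed than the 68.6% called here. That test therefore does not cover a change of this breadth. Libraries of 1 group differed by more than sampling noise (chi-square per degree of freedom 1.91 to 7.14).

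The genes and lists were chosen with earlier results of these data known. Library values were given for every Hedgehog gene and for cilium genes past the threshold with a log2 change of 0.5 or more in size, and up to 3 genes with the smallest adjusted p were named from other lists, besides those named for their role. Some genes and sequences that these rules would name are not reported here. Alternatives were RLE and upper-quartile scaling, other count filters, DESeq2 1.42.0, a replicate block and each library left out.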

Additional observations from a re-analysis of the deposited data

How the results depend on the processing

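No count of changed genes among the 45, the 14 pathway genes or the 31 cilium genes, nor that of all tested genes, moved by more than 1.5 times under RLE or upper-quartile scaling, either other filter, DESeq2, the replicate block or any library left out. Same-numbered libraries deviated from their group means with correlations of 0.0133, 0.00486 and -0.0131, so no shared deviation was seen. Sampling noise enters these deviations, so the check cannot exclude a shared batch. With the replicate block, 24 of the 45 genes were higher and 12 lower. No call past the threshold reversed. Among genes that did not pass, Arl6 changed sign with upper-quartile scaling (0.02) and without wild-type replicate 1 (0.06) or knockout replicate 3 (0.02), over a range of -0.11 to 0.06 with 1 library left out. Bbs1 changed sign without wild-type replicate 3, over a range of -0.03 to 0.25. The cause was not tested. Upper-quartile scaling moved the all-gene median from 0.009 to 0.046. Depth limits Shh most, with 5 to 31 counts per library.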
